A study of Sus scrofa with 6 samples.

Results

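*LEF1* and *PRICKLE2* are genes of the Wnt signalling pathway, and each held a single differentially methylated region (DMR) between a white and a red skeletal muscle of the pig. All entries carrying either symbol in the deposited list were taken, which gave 2 of 15633 DMRs. The pair was chosen from earlier results on these libraries, with its differences between the muscles known, and every region of the list had itself been selected by the authors on the difference between the same libraries. Their differences are therefore described here without a test, and they are not evidence that Wnt genes differ between the muscles.

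Methylated DNA immunoprecipitation sequencing (MeDIP-seq) had been performed on 2 skeletal muscles, the white *longissimus dorsi* of the back (LDM), in which fast glycolytic fibres prevail, and the red *psoas major* of the loin (PMM), which is more oxidative. There were 3 libraries of each muscle, from untreated female Landrace pigs aged 210 days. The source field names the back muscle in every sample, so the muscle was taken from the title, which the tissue tag repeats. According to the methods of the study, both muscles came from the same pigs, but no label ties a replicate number to an animal. The main fit below therefore treats the libraries as independent, and its p-values refer only to the spread between these libraries. As the regions had been selected on the same libraries, these p-values are no independent test. In this assay an antibody against methylated cytosine pulls down sonicated DNA, and the value of a region is its mean read depth per CpG after scaling of each library. Whole muscle was used, so a different mixture of cells and a different methylation within a cell cannot be told apart. Identity of the tissue could not be checked against expression markers, since the table holds methylation only.

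Over the listed DMRs, the median depth ran from 26.2 to 28.0 in the LDM libraries and from 23.8 to 25.4 in the PMM libraries. Libraries of the same muscle correlated at 0.935 to 0.959 and libraries of opposite muscles at 0.390 to 0.639 (Pearson's r of log2 depth, taken over DMRs as a description). The listed regions had been selected on the difference between these libraries, so this contrast was built in. It measures neither reproducibility nor how far the muscles differ over the genome. Library totals were not given. The smallest step between values was largest in PMM replicate 1, and by inference from this step its total depth before scaling was the least, at 0.825 of LDM replicate 1.

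Wnt proteins are secreted signals that bind Frizzled receptors on the cell surface. In the canonical branch, the signal stops a cytoplasmic destruction complex from breaking down beta-catenin, which then enters the nucleus and joins DNA-binding proteins of the TCF/LEF family, *LEF1* among them, to switch on target genes. *LEF1*, an HMG box factor, is best known from T lymphocyte and hair follicle development in the mouse. *PRICKLE2* belongs to a branch without beta-catenin, planar cell polarity, in which the cytoplasmic Prickle proteins and the membrane proteins Vangl mark one side of a cell. In muscle, Wnt signals are known from the formation of the first myogenic cells in the embryo and from the stem cells that repair fibres.

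The *LEF1* DMR lay in an internal intron of the transcript ENSSSCT00000010018, on chromosome 8 from 122098894 to 122099044 of Sscrofa10.2, and spanned 151 bp with 5 CpGs. Its depth was 11.4 in LDM replicate 1, 7.67 in LDM replicate 2 and 11.4 in LDM replicate 3, whereas the PMM libraries read 24.2 in replicate 1, 28.6 in replicate 2 and 28.3 in replicate 3. All 3 PMM libraries were above all 3 LDM libraries, and the lowest PMM value was 2.12 times the highest LDM value. Mean depth was 10.17 ± 2.16 for the LDM libraries and 27.0 ± 2.43 for the PMM libraries (SD, n = 3). On the scale of log2(depth + 1), PMM minus LDM was 1.34 (SE 0.20), or 2.54-fold higher in PMM, against a spread between replicates of 0.23.

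The *PRICKLE2* DMR also lay in an internal intron, that of the transcript ENSSSCT00000012578, on chromosome 13 from 50158232 to 50158389, and spanned 158 bp with 6 CpGs. Its depth in LDM was 5.0 in replicate 1, 7.08 in replicate 2 and 3.95 in replicate 3, and in PMM it was 14.7 in replicate 1 and 22.7 in each of replicates 2 and 3. Again no library of one muscle reached a library of the other, with the lowest PMM value at 2.08 times the highest LDM value. The LDM mean was 5.35 ± 1.59 and the PMM mean 20.04 ± 4.59 (SD, n = 3), and the log2 difference was 1.73 (SE 0.27), or 3.32-fold higher in PMM. This DMR was the noisier of the pair, with a coefficient of variation of 29.8% in LDM and 22.9% in PMM, compared with 21.3% and 9.0% for *LEF1*.

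**Figure D1:**
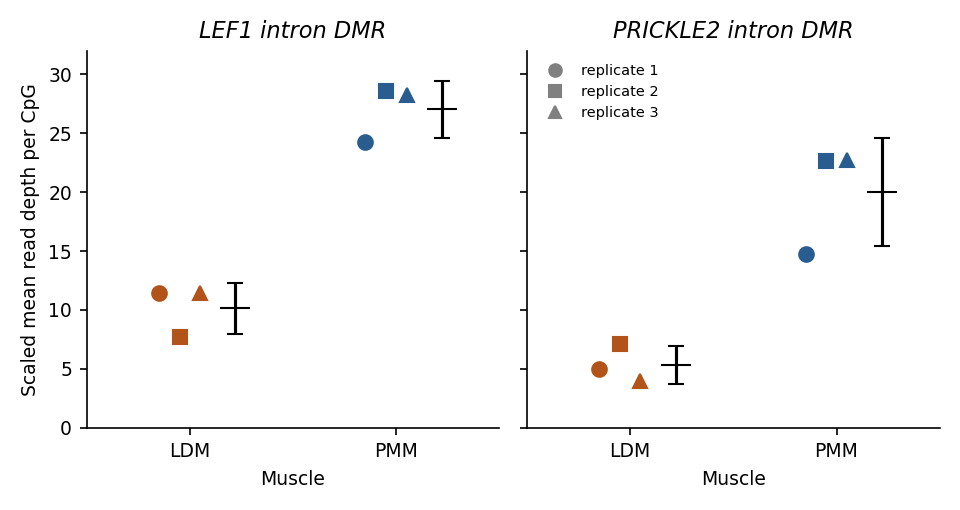
Scaled mean read depth per CpG (vertical axis, from 0) of the *LEF1* and *PRICKLE2* intron DMRs in the 3 LDM and 3 PMM libraries (horizontal axis). Symbols are single libraries, and the bars beside them give the mean and SD. In both genes the PMM libraries lie above the LDM libraries, and PMM replicate 1 is the lowest of its muscle.

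PMM replicate 1 was the lowest PMM library in both genes. Its total depth before scaling, inferred from the step, was also the least. Its median over the listed DMRs was nevertheless the highest of the PMM libraries, at 25.4, and a part of depth in the member values was not tested. Without PMM replicate 1, the gains were larger, at 2.67-fold in *LEF1* and 3.81-fold in *PRICKLE2*. Among the LDM libraries the order differed, since replicate 2 was the lowest in *LEF1* and the highest in *PRICKLE2*. With each library left out in turn, the log2 difference ran from 1.17 to 1.43 in *LEF1* and from 1.57 to 1.93 in *PRICKLE2*.

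These values rest on few reads. Summed over the CpGs of a region, the depths corresponded to 57, 37 and 53 read positions in LDM and 100, 123 and 136 in PMM for *LEF1*. For *PRICKLE2* the LDM sums were 30, 41 and 22 and the PMM sums 73, 117 and 131. A read lying over several CpGs enters such a sum more than once, so fewer reads than this stood behind each value, and no counting interval was derived.

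Relative to the whole list, both regions were poorly covered in LDM and ordinary in PMM. The LDM mean of *LEF1* exceeded that of 8.12% of the listed DMRs, and its PMM mean exceeded that of 53.6%. For *PRICKLE2* the shares were 1.65% in LDM and 44.1% in PMM, so its LDM depth was near the bottom of the list. Median depths over the list were 27.1 (LDM) and 24.2 (PMM).

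In a fit of limma across all listed DMRs, with p-values adjusted by the Benjamini-Hochberg method and a threshold of 0.05, both members were called, as were 99.9% of the 15633 DMRs. Those called higher in PMM made up 55.9% of the list and those called lower 44.0%. In 100% of the DMRs the LDM and PMM libraries stood apart without overlap. Since the members were chosen on this contrast, nothing is read from these counts. A gain of at least 2.5-fold, a bound just under the value of *LEF1*, was found in 4.59% of all DMRs. *LEF1* fell below this bound under some settings, such as a pseudocount of 4 (2.20-fold) or without LDM replicate 2 (2.25-fold). Of the DMRs with a gain, 92.7% had a smaller one than *LEF1* and 98.7% a smaller one than *PRICKLE2*, and 636 and 110 DMRs of the list had larger gains. The pair was chosen with these gains known, so their ranks are a description only.

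The member DMRs shared further features. Their CpG density was not independent of the choice, since over the list it went with the direction of the difference, which was known. Both lay in internal introns, where 56.1% of the 3404 listed DMRs were higher in PMM, close to the whole list. Neither was annotated to a CpG island or to an island shore. Their lengths of 151 and 158 bp were slightly above the median of 134 bp. The density was 3.31 CpGs per 100 bp in *LEF1* and 3.80 in *PRICKLE2*, below the median of 5.38. With the list divided into 4 equal classes of CpG density, *LEF1* fell in the sparsest class, of which 93.9% were higher in PMM. *PRICKLE2* fell just inside the next class, which starts at 3.69 CpGs per 100 bp and of which 76.1% were higher. In their direction both members thus resembled most regions of like density. A part of the pull-down in this trend with density was not tested.

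**Figure D2:**
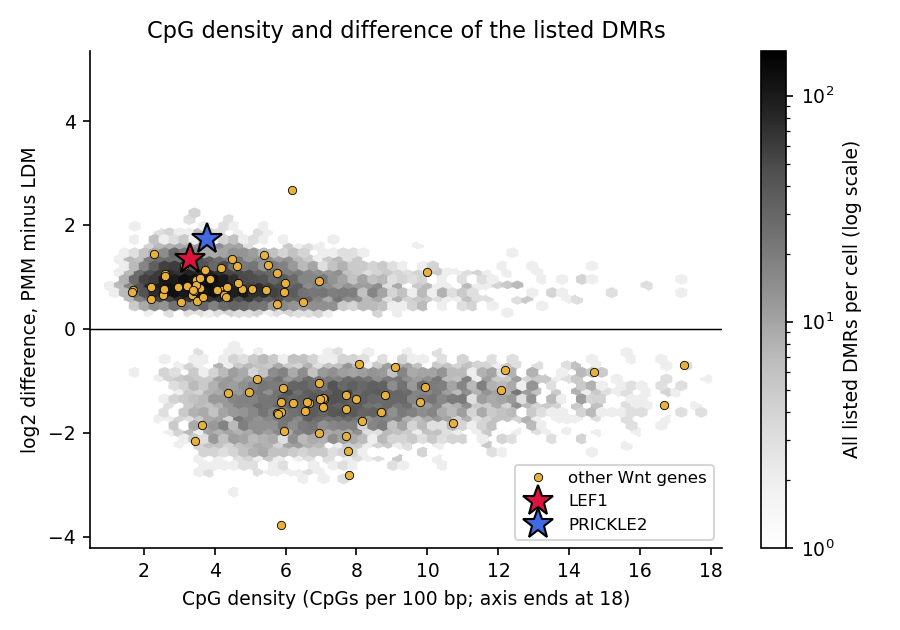
CpG density (horizontal axis, CpGs per 100 bp) against the log2 difference in depth, PMM minus LDM (vertical axis), of the listed DMRs, shown as grey cells, with the DMRs of other Wnt genes as yellow points and *LEF1* and *PRICKLE2* as stars. The axis ends at 18 CpGs per 100 bp, and 167 denser DMRs are not drawn. The stars lie at 3.31 and 3.80 CpGs per 100 bp, among the sparse regions that were mostly higher in PMM.

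In size, the gains of both members were larger than most gains of their density class. *LEF1* exceeded 92.4% of the gains in the sparsest class and *PRICKLE2* exceeded 98.5% in the next, whose median gains were described by a log2 difference of 0.89 and 0.84. When a smooth trend of log2 depth with CpG density was subtracted from each library, the difference fell to 0.59 (SE 0.19) in *LEF1* and to 1.06 (SE 0.26) in *PRICKLE2*. Both directions were kept, and each difference was reduced by over 1.5 times. The median of all DMRs moved at the same time from 0.56 to 0.03, so that relative to this median *LEF1* went from 0.78 to 0.56 and *PRICKLE2* from 1.17 to 1.03. The place of the members among all gains also fell, with 59.6% of gains smaller than *LEF1* and 75.9% smaller than *PRICKLE2* after subtraction.

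The levels of the members in each library differed from each other less clearly than the muscles did. The depth of *LEF1* was above that of *PRICKLE2* in all 6 libraries, by 1.08 times in LDM replicate 2 up to 2.89 times in LDM replicate 3, with 1.25 to 1.64 times in PMM. Depth in this assay also depends on the number of CpGs nearby, so levels of different regions do not rank their methylation. The log2 difference between the muscles was larger in *PRICKLE2* by 0.39, which is near the spread of its own replicates of 0.35.

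Around *LEF1*, the listed DMRs mostly went the same way. Within 1 Mb there were 7 other DMRs, of which 6 were higher and 1 was lower in PMM, compared with 55.4% higher among the other DMRs of chromosome 8. All 7 were called by limma, as were 99.9% of all listed DMRs. The nearest, at 112.3 kb, lay just downstream of *HADH*, a mitochondrial dehydrogenase of fatty acid oxidation, where 37.7 ± 1.35 in the white muscle became 67.0 ± 4.37 in the red (SD, n = 3), 1.76-fold higher. A *HADH* intron DMR at 124.0 kb was 1.73-fold higher, while another at 142.3 kb was 2.02-fold lower, going from 28.0 ± 2.84 to 13.8 ± 4.24 (SD, n = 3).

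Further away lay 3 DMRs of *SGMS2*, a sphingomyelin synthase, with gains of 1.87-fold, 1.81-fold and 2.40-fold at 232.9, 236.9 and 295.7 kb. Both *HADH* gains and the *SGMS2* DMRs at 232.9 and 295.7 kb belonged to the sparsest density class, of which 93.9% were higher over the whole list. On the other side, an exon DMR of *ETNPPL*, an enzyme that breaks down phosphoethanolamine, was 2.32-fold higher at 481.4 kb, although it belonged to the densest class with 9.62 CpGs per 100 bp. In the RefSeq annotation of Sscrofa11.1, *LEF1* is followed by *HADH* and *SGMS2* and preceded by *RPL34*, *OSTC* and *ETNPPL*. With the density trend subtracted, 5 of the 7 DMRs were higher and 2 lower. Of these, 2 gains and 1 loss were called, where 49.2% of all DMRs were. A *HADH* intron DMR changed sign without being called.

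Around *PRICKLE2*, the regions did not share its direction. Of 4 other DMRs within 1 Mb, 1 was higher and 3 were lower in PMM, against 48.4% higher on the rest of chromosome 13. The nearest, an intergenic DMR at 240.8 kb with 3.87 CpGs per 100 bp, rose from 24.0 ± 4.52 in LDM to 48.3 ± 2.48 in PMM (SD, n = 3), 1.99-fold. The other gene with a DMR there was *SNTN*, which encodes the ciliary protein sentan, 1.60-fold lower in PMM at 487.7 kb, with 15.96 to 18.8 over the LDM libraries and 9.15 to 12.1 over the PMM libraries. The largest difference was an intergenic loss of 3.35-fold at 298.1 kb, in a DMR with 10.0 CpGs per 100 bp. All 4 were called, as were 99.9% of all listed DMRs. With the density trend subtracted only the *SNTN* loss still was, where 49.2% of all DMRs were. None of the genes that flank *PRICKLE2* in the RefSeq order, *PSMD6* and *ADAMTS9*, was named among these DMRs.

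**Figure D3:**
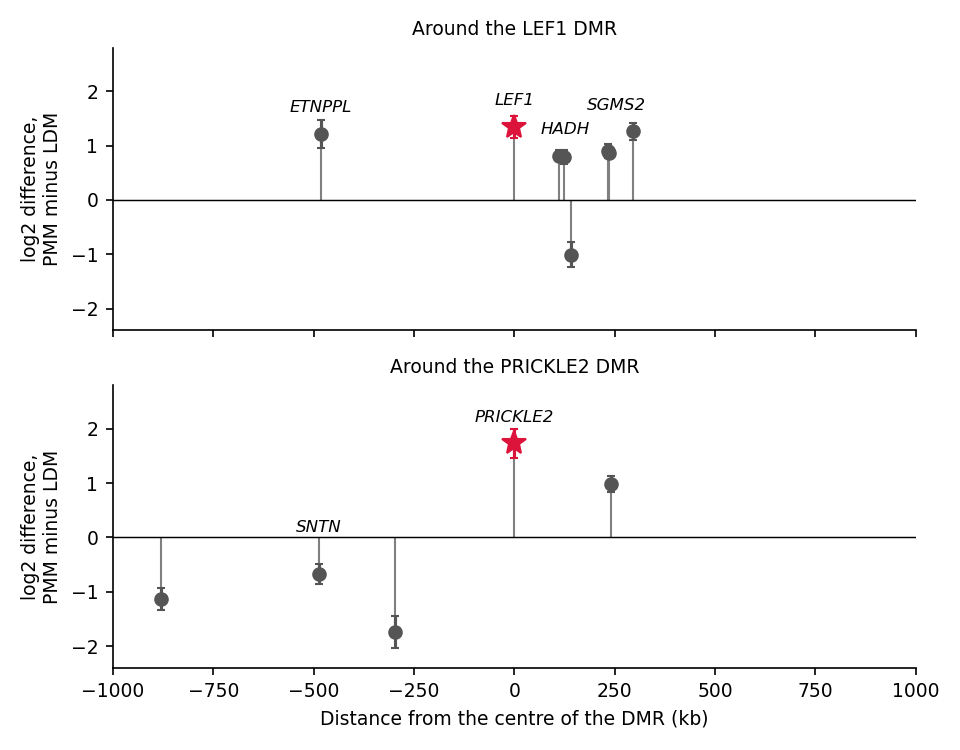
Listed DMRs within 1 Mb of the *LEF1* DMR (top) and the *PRICKLE2* DMR (bottom), by distance from the centre of the member DMR in kb (horizontal axis) and log2 difference, PMM minus LDM, with its standard error (vertical axis). Stars are the member DMRs, and genes are named where the list gives a symbol. Around *LEF1* 6 of 7 other DMRs were higher in PMM, and around *PRICKLE2* 1 of 4.

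Close relatives of the members were held by the list as well. The TCF/LEF family has *TCF7*, *TCF7L1* and *TCF7L2* beside *LEF1*, all of which encode HMG box factors that bind beta-catenin. No DMR was listed for *TCF7*. *TCF7L2* held 11 DMRs over 181.2 kb of chromosome 14, all in introns. Of these, 10 were higher and 1 was lower in PMM, and all were called, as were 99.9% of all listed DMRs. These gains ran from 1.45-fold to 2.55-fold, with mean depths from 4.49 to 71.5 in LDM and from 12.99 to 103.8 in PMM.

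The largest *TCF7L2* gain, on chromosome 14 from 134682129 to 134682239, was the one closest to *LEF1* in size. The LDM libraries read 4.80, 3.94 and 4.75 and the PMM libraries 12.8, 13.03 and 13.1, which is 2.55-fold higher. The single loss of this gene, from 134782466 to 134782530, lay 433 bp from a gain in the neighbouring DMR from 134782964 to 134783086. At the loss, LDM libraries of 63.8, 47.1 and 62.3 faced PMM libraries of 21.1, 8.14 and 12.5, 4.17-fold lower, whereas the neighbour was 1.67-fold higher. The loss held 7.69 CpGs per 100 bp and the neighbouring gain 4.07. When the density trend was subtracted, 7 of the 11 *TCF7L2* DMRs were higher and 4 lower, with 4 gains and 1 loss still called, where 49.2% of all DMRs were.

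*TCF7L1* went against *LEF1*. Its single DMR, in an internal intron on chromosome 3 from 62438997 to 62439117, fell from 15.3 ± 1.53 to 5.38 ± 2.24 (SD, n = 3), 2.66-fold lower. The region lay in a CpG island shore and held 6.61 CpGs per 100 bp, and the loss was still called with the density trend subtracted. Among the relatives of *PRICKLE2*, no DMR was listed for *PRICKLE1*, *PRICKLE3*, *PRICKLE4* or *VANGL2*. *VANGL1*, a membrane partner of the Prickle proteins, held 2 DMRs, both higher in PMM, the first 1.75-fold (38.6 ± 4.70 to 68.1 ± 3.13) and the second 1.53-fold (67.9 ± 7.11 to 104.5 ± 7.44; SD, n = 3). Neither *VANGL1* gain was called with the density trend subtracted, when 1 of them changed sign.

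**Figure D4:**
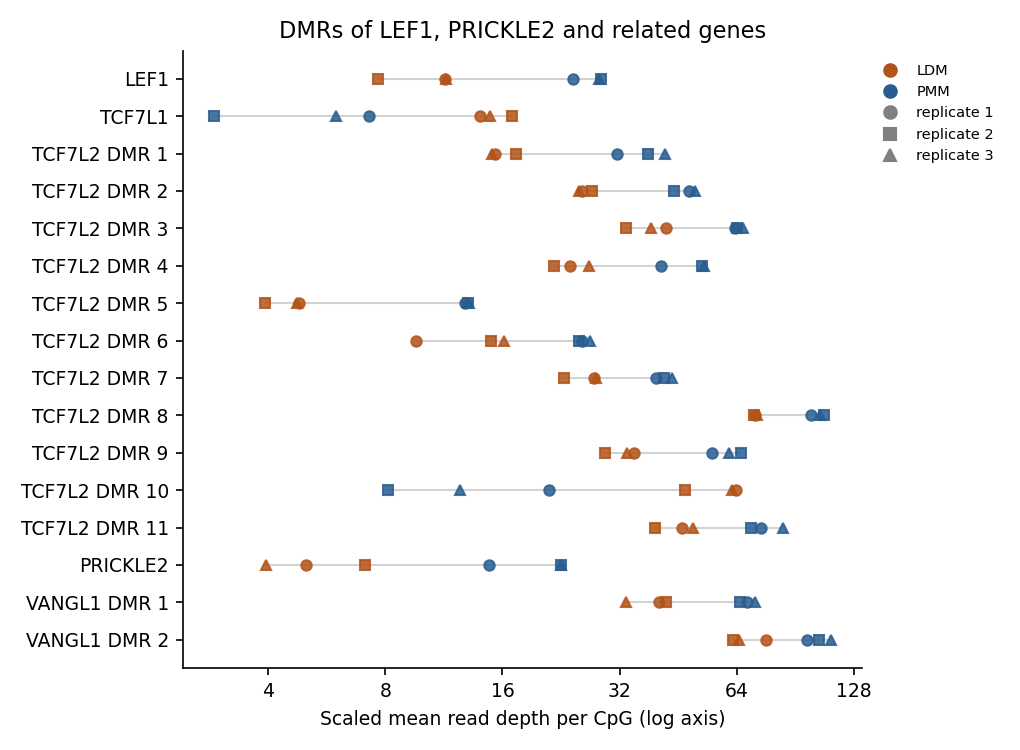
Scaled mean read depth per CpG in each library (horizontal axis, logarithmic) for the DMRs of *LEF1*, *PRICKLE2* and their relatives *TCF7L1*, *TCF7L2* and *VANGL1* (vertical axis; the DMRs of a gene are numbered along the chromosome). Colours mark the muscle and symbols the replicate. *TCF7L2* was higher in PMM in 10 of its 11 DMRs, and *TCF7L1* was lower.

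To place the members in the pathway, 167 other Wnt genes were listed by role. Of these, 42 held 88 DMRs, with 47 higher and 41 lower in PMM. All 88 were called, as were 99.9% of the whole list. The share of gains, 53.4%, was near the 55.9% of the whole list, and the median log2 difference was 0.53 against 0.56 over all DMRs. Averaged within genes, 17 were higher and 25 lower. Quantile normalization gave 45 gains and 43 losses, and subtraction of the density trend gave 40 and 48, of which 20 and 23 were called, against 49.2% called over all DMRs under this setting. Among the 88 DMRs, 1 gain exceeded that of *PRICKLE2*, and 4 exceeded that of *LEF1*, in *PRKCA*, *NDP*, *LGR6* and *TCF7L2*. This order depended on the scale, since with the density trend subtracted 9 exceeded *PRICKLE2* and 15 exceeded *LEF1*.

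The direction within the pathway went with CpG density as it did elsewhere. From the sparsest class to the densest, 22 of 24, 15 of 18, 9 of 30 and 1 of 16 Wnt DMRs were higher in PMM, where the shares of the whole list were 93.9%, 76.1%, 37.1% and 16.7%.

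Nuclear effectors, the group to which *LEF1* belongs, had 14 gains and 5 losses in 5 of 20 genes, mostly through *TCF7L2*. Without that gene, 4 gains and 4 losses were left. The coactivator *CREBBP*, a histone acetyltransferase, had gains in all 3 of its DMRs, 1 of which changed sign with the density trend subtracted, while its relative *EP300* had 1 gain and 2 losses. The kinase *NLK*, which phosphorylates TCF/LEF proteins, had 1 loss. With the density trend subtracted the group had 10 gains and 9 losses, of which 5 and 4 were called, against 49.2% of all DMRs.

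In the planar cell polarity group of *PRICKLE2*, 6 DMRs were higher and 7 lower, in 8 of 24 genes. The largest other gain of the group, in an intron of the kinase *MAPK10*, was 2.07-fold, from 10.17 ± 1.09 to 22.2 ± 4.07 (SD, n = 3), and remained short of the 3.32-fold of *PRICKLE2*. The largest loss lay in *ROCK1*, a kinase of the cytoskeleton, from 11.11 ± 1.94 to 2.32 ± 1.57 (SD, n = 3), 3.91-fold lower. The *MAPK10* gain was not called with the density trend subtracted, whereas the *ROCK1* loss was.

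At the start of the pathway, ligands and their secretion had 1 gain and 3 losses in 3 of 22 genes. The ligand *WNT2B* was 1.60-fold higher, and *WLS*, the carrier that brings Wnt proteins to the cell surface, was 3.44-fold lower, from 13.7 ± 3.01 to 3.37 ± 1.49 (SD, n = 3), though neither was called with the density trend subtracted. Both DMRs of *PORCN*, the enzyme that attaches the lipid to Wnt proteins, were lower. Receptors and co-receptors had 4 gains and 3 losses in 4 of 21 genes, and *LGR6*, a receptor for R-spondins, held the largest of each, 2.69-fold higher and 4.44-fold lower. Secreted modulators had 3 gains and no loss in 2 of 18 genes, but 1 gain changed sign, without being called, under quantile normalization and 1 did with the density trend subtracted. The gain in *NDP*, which encodes the Frizzled ligand norrin, was 2.72-fold.

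The cytoplasmic relay and destruction complex had 6 gains and 9 losses in 10 of 29 genes, or 5 and 10 with the density trend subtracted. The casein kinase gene *CSNK1G3* was 2.32-fold higher, from 27.0 ± 4.47 to 63.4 ± 3.44 (SD, n = 3). *CSNK1E* was 4.02-fold lower, with PMM libraries at 8.48, 0.47 and 5.82, and without PMM replicate 2 the loss was 2.28-fold. It was not called with the density trend subtracted. Chosen after its values were seen, *CTNNB1*, the gene of beta-catenin itself, had an exon DMR that read 172.9, 161.6 and 143.2 in the LDM libraries and 218.4, 236.4 and 228.1 in the PMM libraries, 1.43-fold higher. Its log2 difference of 0.52 was below that of *LEF1*, but with the density trend subtracted it was 1.20 (SE 0.13) and above it.

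The calcium branch had 10 gains and 6 losses in 6 of 19 genes, or 9 and 7 under quantile normalization or with the density trend subtracted. The protein kinase C gene *PRKCA* held the gain above *PRICKLE2* on the scale without density subtraction, where LDM libraries of 1.17, 1.90 and 0 faced PMM libraries of 7.47, 13.4 and 12.5, 6.39-fold higher with a pseudocount of 1. Target genes had 3 gains and 8 losses in 4 of 14 genes. The largest gain among them was 1.74-fold in *CD44*, a hyaluronan receptor, which also held losses of up to 5.12-fold. That gain changed sign, without being called, when the density trend was subtracted.

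**Figure D5:**
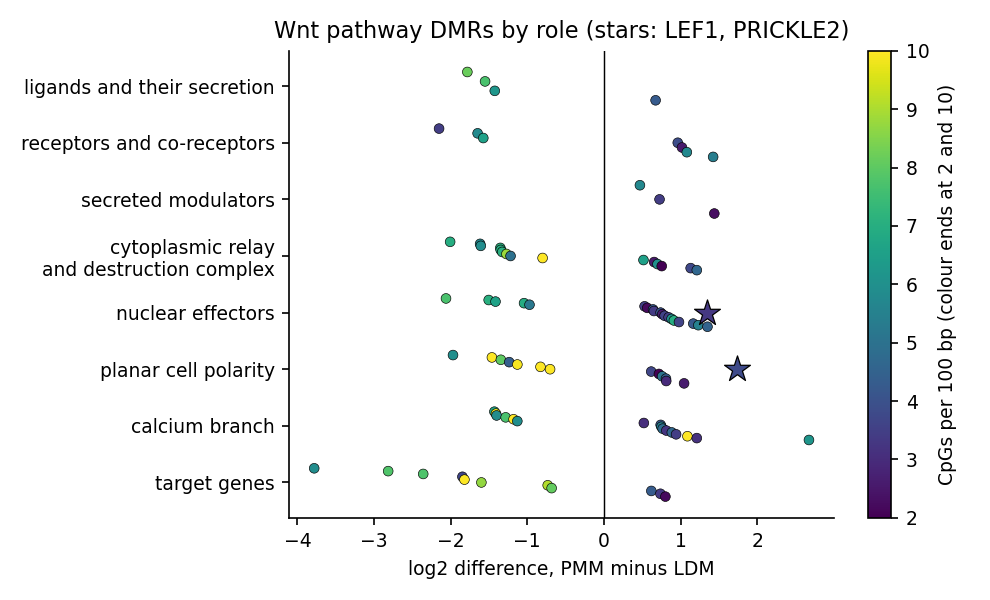
Log2 difference in depth, PMM minus LDM (horizontal axis), of the 88 DMRs of other Wnt genes by role in the pathway (vertical axis). Points are single DMRs coloured by CpG density, and the stars in the rows of nuclear effectors and planar cell polarity are *LEF1* and *PRICKLE2*. Gains are mostly sparse in CpGs and losses mostly dense.

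Likeness to the members was measured by the root mean square difference of log2(depth + 1) over the 6 libraries, and the 3 closest DMRs of other genes are given for each. It describes similar depth values only. Closest to *LEF1* were an internal intron of *MACF1*, a cytoskeletal linker (0.11), *NF2*, the tumour suppressor merlin (0.14), and *RGP1*, a partner in Rab6 activation (0.15). The *MACF1* DMR read 11.3, 8.16 and 12.1 in the LDM libraries and 27.1, 31.8 and 26.6 in the PMM libraries. Closest to *PRICKLE2* were *SH3GLB1*, endophilin B1 (0.18), *CEP83*, a centriole protein (0.19), and *NDP* (0.20), which is a Wnt gene of the list above. *LEF1* and *PRICKLE2* differed from each other by 0.77.

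Because *LEF1* is a T cell factor, DMRs of blood and other cell markers are given beside it. Of 21 lymphocyte markers, 8 held 11 DMRs, with 6 higher and 5 lower in PMM. Endothelial markers had 7 gains and 3 losses in 4 of 11 genes, fibroblast markers 3 gains and 2 losses in 3 of 8 genes, and adipocyte markers 2 gains and 1 loss in 2 of 7 genes. No DMR was listed for 6 nerve and Schwann cell markers. Over the whole list, 55.9% of the DMRs were called higher in PMM, and each marker group held few DMRs. These counts give methylation and not cell numbers, and the part of other cell types in the *LEF1* and *PRICKLE2* differences was not tested.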

How the data were processed

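DNA of 3 LDM and 3 PMM samples had been sequenced after immunoprecipitation of methylated DNA. According to the methods of the study, the authors aligned reads with SOAP2 to the pig genome (build Sscrofa10.2 in the submitters' processing notes), dropped thinly covered CpGs, tested each CpG between the muscles and joined differing CpGs into DMRs of 5 or more. The deposited values are a coverage signal, the mean read depth per CpG of a DMR. Summed over CpGs, 100% of them were whole multiples (within 0.1) of a step that differed between libraries, so a scaling factor per library was read from the values. The authors' p-value columns and pooled means were not used.

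Rows were joined to 1 entry per DMR, and the human symbol, else the pig symbol, named the gene. Depths were analysed as log2(depth + 1) without a filter in limma 3.58.1 (R 4.3.3; lmFit, eBayes with trend), with muscle as the only term and Benjamini-Hochberg adjustment over 15633 DMRs. The fitting code was run on simulated data with known changes, without selection of regions and without a density trend. This run checks the code and not the calls made here. Alternatives were other pseudocounts, a depth filter, other scalings, subtraction of a lowess trend with CpG density, a replicate block and leaving out each library. Members and lists were chosen with earlier results of these data known. The genes named were, per role, the DMR with the largest difference in each direction, close relatives, DMRs within 1 Mb, and the 3 most alike; a few others were added after their values were seen, namely *CREBBP*, *EP300*, *NLK*, *PORCN* and *CTNNB1*. A DMR that this rule would also name is not reported here. Coordinates are counted from 1 as in the table. No sequence is printed, since no genome of this build was used here.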

Additional observations from a re-analysis of the deposited data

How the results depend on the processing

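The direction of *LEF1* and *PRICKLE2* was kept in all 14 alternatives, but most of these could not have changed it. In each listed DMR, every value of the higher muscle exceeded every value of the lower. Other pseudocounts, the depth filter, the replicate block and leaving out a library therefore could not reverse a sign. A reversal was possible at most under the other scalings and subtraction of the density trend. Quantile normalization raised the log2 difference to 1.78 in *LEF1* and 2.29 in *PRICKLE2*, subtraction of the density trend lowered it to 0.59 and 1.06, and a pseudocount of 4 lowered *PRICKLE2* to 1.36. With the density trend subtracted, 7697 of all DMRs were called, and 20 gains and 23 losses of the other Wnt genes. The median of all DMRs moved by 0.15 with libraries scaled to 1 median, by -0.46 with quantile normalization and by -0.13 with the authors' library factor removed, an alternative chosen after seeing the data. Relative to the median, *LEF1* stood at 0.78, 1.68 and 0.78 and *PRICKLE2* at 1.16, 2.18 and 1.17 under these scalings. Leaving out each library gave 1.17 to 1.43 in *LEF1*, 1.57 to 1.93 in *PRICKLE2* and 15589 to 15604 calls. The other Wnt genes had 47 gains and 41 losses each time, but the separation of the muscles in every DMR had fixed these signs. Deviations of equally numbered libraries correlated at 0.04, 0.24 and 0.02 across DMRs, and those of unequally numbered libraries at -0.21 to 0.18. With 3 libraries per muscle, these values cannot decide whether the numbers pair them. A replicate block left both member differences at 1.34 and 1.73 and called 15606 DMRs. Few reads over 5 and 6 CpGs limit the precision of both members.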
